A study of Drosophila melanogaster with 23 samples.

Results

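The chemosensory receptors described here are the genes whose FlyBase symbols begin with Or, Gr or Ir followed by a digit: the odorant, gustatory and ionotropic receptors of Drosophila melanogaster. The symbol rule found 186 members among the 17606 genes of the count table. There were 60 Or genes (8 on the X, 52 on the autosomes), 60 Gr genes (6 and 54) and 66 Ir genes (11 and 55), so 25 members lay on the X and 161 on the autosomes, 7 of the 186 being annotated pseudogenes. Total RNA came from pooled male and female whole L1 larvae, 25 to 30 per sample, with 25 °C recorded for every sample. It was sequenced in 23 libraries of 6 genotypes. These were Set21 (4 libraries), compared with yw (3 libraries), and 4 histone genotypes with 4 libraries each. Of the histone genotypes, H3.3K36RH3.2K36R is called combined H3K36R below, H3.3K36RH3.2HWT is called H3.3K36R alone, H3.3CtrlH4K16R is called H4K16R, and H3.3CtrlH3.2HWT, their common reference, is called the histone control. Every one of the 4 histone genotypes names histone states in its label, the control included, whereas Set21 and yw name none. The methyltransferase Set2 places the third methyl group on lysine 36 of histone H3 (H3K36), and the series is about the part of Set2 and this lysine in the output of X-linked genes in males. The labels do not say whether replicate libraries came from separate crosses, so a p-value here measures the spread between samples, which may be partly technical.

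Odorant receptors are ion channels that each work with the shared co-receptor Orco, and a larval olfactory neuron typically expresses a single tuning receptor. Gustatory receptors detect sugars, bitter compounds and carbon dioxide, and ionotropic receptors, which descend from ionotropic glutamate receptors, detect acids, amines, cooling, dryness and tastants with the help of the co-receptors Ir25a, Ir8a and Ir76b. Each receptor is normally made by very few neurons of the larval head and body wall, so its RNA is scarce in an extract of the whole animal. In such an extract, fewer expressing cells and less RNA per cell cannot be told apart.

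The libraries held 111138070 to 157973821 counts. Levels are given as CPM, counts scaled to library size, after TMM scaling, as mean ± SD over libraries. At these depths 3 counts, taken as the limit that a count of 0 allows in a library, correspond to 0.0183 to 0.0273 CPM, which covers counting error only. Set2 RNA lay at 4.97 to 7.69 CPM in Set21 larvae, against 70.4 to 82.4 CPM in yw larvae, while a histone point mutation cannot be checked from counts per gene. Muscle and gut markers were present in every genotype, and their mean sums were lowest in combined H3K36R. The 8 muscle markers summed to 28748 ± 2440 CPM there and 38092 ± 5417 CPM in the histone control (5 of 8 called lower, libraries overlapping). The 6 gut markers summed to 2545 ± 293 CPM and 3660 ± 370 CPM in the same genotypes (2 of 6 called lower, libraries not overlapping). The part of these falls in the receptor values was not tested. The 7 testis markers together lay between 0.127 and 1.10 CPM in single libraries. Set21 replicate 3 stood apart in its neuronal markers, whose 20 genes summed to 1543 CPM there, against 3654 to 4075 CPM in the other 3 Set21 libraries.

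Receptor RNA was rare in every genotype. Averaged over the 6 genotype means, 11 members reached 1 CPM, 45 lay from 0.1 to below 1 CPM and 130 lay below 0.1 CPM. A level of 0.1 CPM, used as the detection limit, corresponds to 11 to 16.4 counts. By that limit 18 members were detected in all 23 libraries and 41 in none. Of the 11 most abundant members 8 were Ir genes, all autosomal.

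A count of 0 in all 23 libraries was found for 5 members: Gr10a, Gr64b, Gr64c, Gr64e and Or10a. In the BDGP6.54 annotation, all exon bases of Gr10a, Gr64b, Gr64c and Or10a and 99.1% of those of Gr64e also belong to another gene on the same strand. Gr10a and Or10a share a transcription unit, as do the sugar receptors of the Gr64 cluster. Gr64d, with 97.3% of its exon bases shared in this way, had 15 counts over all libraries, and Ir75d, with 90.7%, had 2. In contrast, Or46a, Or83a and Or45b, whose exon bases all lie under exons of a gene on the other strand, had 146, 350 and 1104 counts. The sources used here do not state how reads on shared bases were counted, and the 0 values of these 5 genes do not measure their expression.

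Compared per kilobase of exon as a mean over the 6 genotypes, Ir62a was the highest member at 3.28 CPM per kb, followed by Or43b at 1.40, Ir47a and Ir76a at 1.25 each, Ir76b at 1.22 and Ir21a at 1.16 CPM per kb. The genotypes differed widely for some of these, since Ir76a stood at 3.04 CPM per kb in combined H3K36R and 0.0730 in yw. Ir62a has been linked to the taste of calcium in adult flies. Ir76b is a co-receptor of taste and amine-sensing neurons, and Ir21a is a subunit of the larval cool receptor. Among the Gr genes the highest were Gr66a (0.546 CPM per kb) and Gr33a (0.440), both broadly used subunits of bitter receptors, with Gr39b at 0.459 (0.0617 to 0.103 in Set21 and yw, 0.535 to 0.765 in the histone genotypes), the warmth receptor gene Gr28b at 0.303 and the CO2 receptor subunit Gr21a at 0.290 CPM per kb. Below Or43b, the Or genes ran from Or71a (0.733), Or2a (0.580) and Or30a (0.534) to Or45b (0.307 CPM per kb). Or2a, Or30a and Or45b were on the list of 25 receptors known from larval olfactory neurons. Or43b and Or71a, known chiefly from adult olfactory neurons, were among the 35 Or genes outside that list. Of the exon bases of Or43b, 40.7% lie under exons of Cul1 on the opposite strand, and Or71a lies within the gene Plp. The part of Cul1 and Plp reads in these values was not tested.

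**Figure D1:**
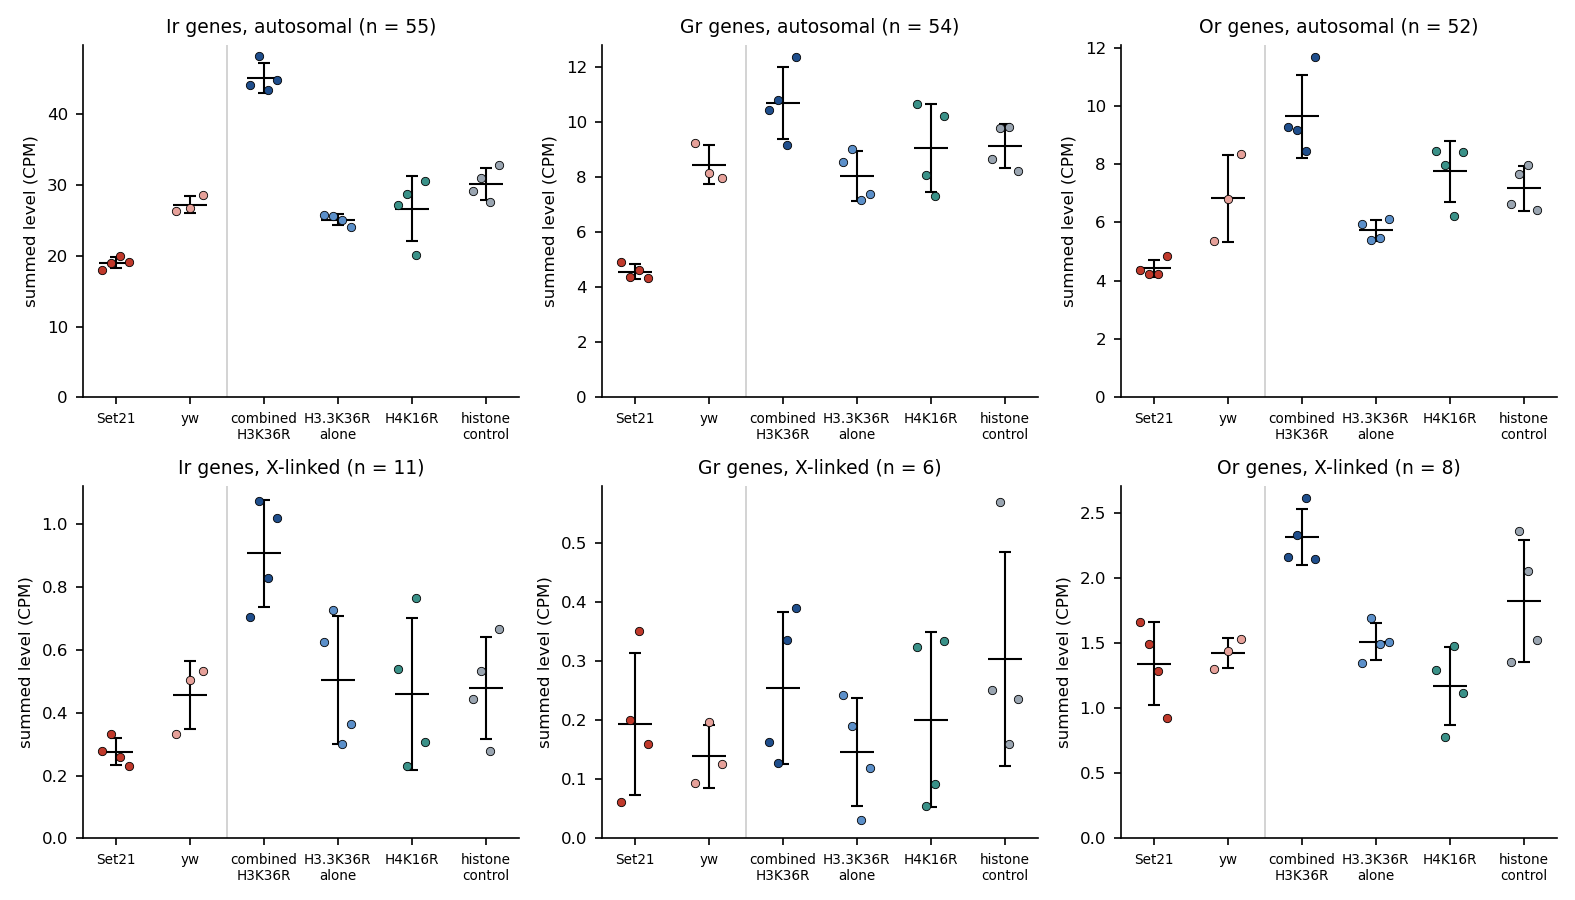
Summed level in CPM of the Ir, Gr and Or genes in each library, autosomal members in the upper row and X-linked members in the lower row, with 1 point per library and bars for the genotype mean ± SD. In the 3 upper panels the Set21 points lie below every yw point, and in the Ir and Or panels the combined H3K36R points lie above every histone control point.

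The summed level of the 161 autosomal members was lowest in Set21 larvae and highest in combined H3K36R larvae. It was 27.4, 27.6, 28.8 and 28.4 CPM in the 4 Set21 libraries, against 41.0, 41.7 and 44.9 CPM in the 3 yw libraries. The 2 groups did not overlap, and the log2 ratio of their means was −0.60. In combined H3K36R larvae the sum was 63.9, 68.2, 61.0 and 68.9 CPM, with 40.3, 40.0, 37.7 and 37.6 CPM in H3.3K36R alone, 46.3, 44.8, 33.6 and 49.2 CPM in H4K16R, and 44.4, 48.5, 45.4 and 47.5 CPM in the histone control. All 4 combined H3K36R libraries lay above all others of the series. Relative to the histone control, the log2 ratio of means was 0.50 for combined H3K36R, −0.26 for H3.3K36R alone and −0.10 for H4K16R. H4K16R larvae overlapped the histone control, whereas the 4 libraries of H3.3K36R alone all lay below it. Combined H3K36R stood 0.75 above H3.3K36R alone on the same scale. These are descriptions of sums, which were not tested.

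The 25 X-linked members summed to much less. Their sum averaged 1.81 ± 0.34 CPM in Set21 larvae (SD, n = 4), against 2.02 ± 0.26 CPM in yw larvae (n = 3), and the libraries of these groups overlapped. It averaged 3.47 ± 0.32 CPM in combined H3K36R larvae, 2.16 ± 0.34 CPM in H3.3K36R alone, 1.83 ± 0.57 CPM in H4K16R larvae and 2.61 ± 0.60 CPM in the histone control (SD, n = 4 each). Combined H3K36R overlapped the histone control, whose libraries ran from 2.05 to 3.46 CPM, but not H3.3K36R alone, whose highest library reached 2.61 CPM. Log2 ratios of the X-linked means were −0.16 for Set21 against yw, 0.41 for combined H3K36R, −0.27 for H3.3K36R alone and −0.51 for H4K16R, each of the last 3 against the histone control. The X-linked sum rested on few genes, since Or2a alone supplied 0.735 CPM on average. Without Or2a the log2 ratio was 0.05 for Set21 against yw and 0.69 for combined H3K36R against the histone control. Without the members that overlap another gene, combined H3K36R against H3.3K36R alone gave 0.50 for the X-linked sum, against 0.69 with them.

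The 3 families took part in the autosomal pattern to different degrees. Ir genes averaged 19.03 CPM in Set21 and 27.2 CPM in yw larvae, Gr genes 4.57 and 8.45 CPM, and Or genes 4.43 and 6.84 CPM. In combined H3K36R larvae and the histone control the same sums were 45.2 and 30.2 CPM for Ir genes, 10.7 and 9.12 CPM for Gr genes, and 9.64 and 7.17 CPM for Or genes. The Gr libraries of combined H3K36R and the histone control overlapped. A few Ir genes carried much of the total: Ir62a, Ir25a, Ir47a, Ir21a, Ir76b and Ir76a together made up 48.3% of the autosomal sum in Set21, 45.2% in yw, 57.1% in combined H3K36R, 50.3% in H3.3K36R alone, 46.1% in H4K16R and 51.5% in the histone control.

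Markers of nervous tissue were also lower in Set21 larvae. The 20 neuronal markers summed to 3269 ± 1163 CPM in Set21 (SD, n = 4) and 6101 ± 357 CPM in yw (n = 3), and 16 of them were called lower in Set21 by edgeR's quasi-likelihood test at an adjusted p below 0.05. Their sum was 6942 ± 380 CPM in combined H3K36R and 6259 ± 511 CPM in the histone control (SD, n = 4 each), with 2 of 20 called higher. Set against these markers, the autosomal receptors amounted to 10.1 ± 5.72 CPM per 1000 CPM of neuronal markers in Set21 and 6.98 ± 0.33 in yw, and to 9.45 ± 0.61 in combined H3K36R and 7.46 ± 0.58 in the histone control. Within Set21, replicate 3 had the fewest neuronal marker counts and the highest ratio (18.7), while its receptor sum of 28.8 CPM was also the highest of the 4. The 27 markers of sensory neurons and sensory organs summed to 184 ± 18.1 CPM in Set21 and 219 ± 0.77 CPM in yw, and to 279 ± 5.07 CPM in combined H3K36R and 245 ± 18.4 CPM in the histone control. The 10 glial markers summed to 1196 ± 60.4 CPM in Set21 and 1641 ± 78.1 CPM in yw, and to 1356 ± 72.6 CPM in combined H3K36R and 1555 ± 66.9 CPM in the histone control. The 6 fat body markers summed to 8156 ± 1154 CPM in Set21 and 11930.5 ± 1791 CPM in yw, and to 3107 ± 592 CPM in combined H3K36R and 8349 ± 895 CPM in the histone control, with 2 of 6 called lower in Set21 and 3 of 6 in combined H3K36R. The proneural genes amos and ato were at or near 0 in all genotypes. The part of cell composition in the receptor differences was not tested.

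**Figure D2:**
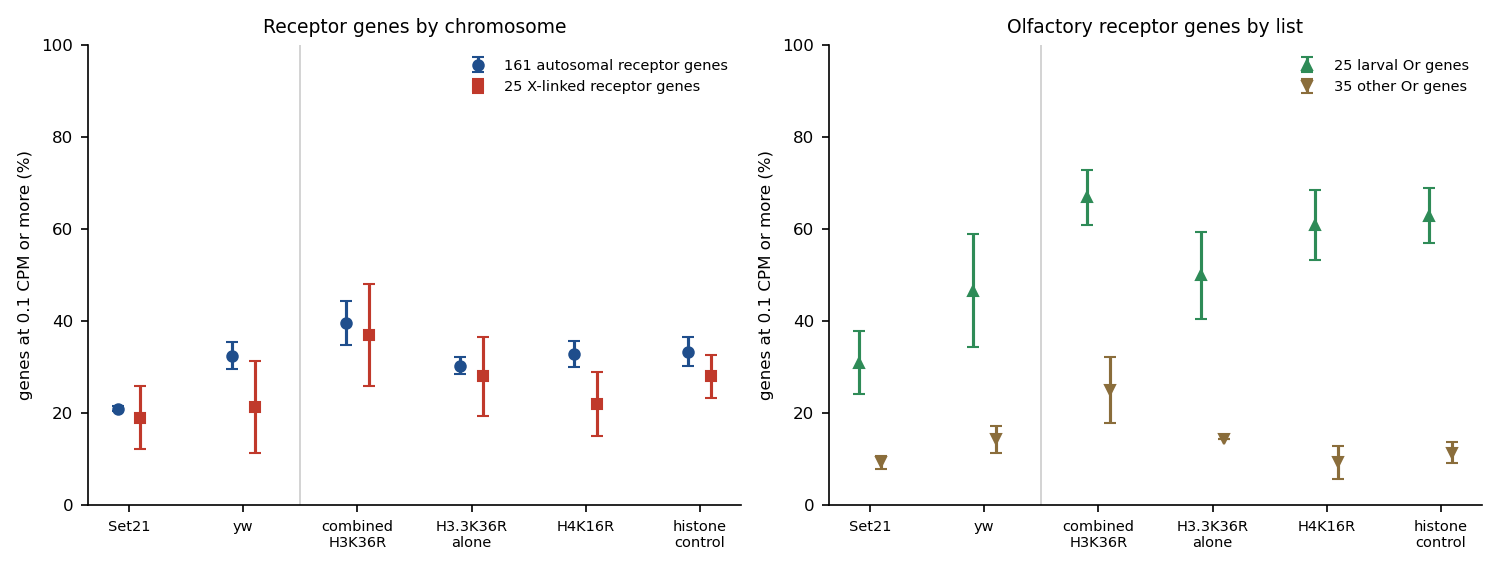
Percentage of genes at 0.1 CPM or more in a library, as genotype mean ± SD over libraries. Left, the 161 autosomal and 25 X-linked receptor genes; right, the 25 larval and the 35 other Or genes. Autosomal members lie at 20.96% in Set21 and 32.5% in yw, and at 39.6% in combined H3K36R and 33.4% in the histone control.

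Detection rates followed the sums. Of the autosomal members, 20.96% ± 0.595 were detected in a Set21 library (33 to 35 genes), against 32.5% ± 2.94 in a yw library (47 to 56 genes). The rate was 39.6% ± 4.74 in combined H3K36R, 30.3% ± 1.85 in H3.3K36R alone, 32.9% ± 2.82 in H4K16R and 33.4% ± 3.18 in the histone control. Counts of detected genes did not overlap between Set21 and yw, but they did between combined H3K36R (57 to 74 genes) and the histone control (49 to 61 genes). For X-linked members the rates were 19% ± 6.83 in Set21, 21.3% ± 10.1 in yw, 37% ± 11.02 in combined H3K36R, 28% ± 8.64 in H3.3K36R alone, 22% ± 6.93 in H4K16R and 28% ± 4.62 in the histone control, all overlapping between compared groups. Over all protein-coding autosomal genes detection varied little, at 79.4% in Set21, 79.2% in yw, 80.8% in combined H3K36R and 80.5% in the histone control. Those genes were not matched to the receptors in level, so their steady rate does not show that the receptor differences are particular to receptors.

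The 25 larval Or genes were detected more often than the other 35 in every genotype. In Set21 the larval list stood at 31.0% ± 6.83, against 46.7% ± 12.2 in yw; in combined H3K36R it stood at 67.0% ± 6, in H3.3K36R alone at 50.0% ± 9.52, in H4K16R at 61.0% ± 7.57 and in the histone control at 63.0% ± 6. The other Or genes were detected at 9.29% ± 1.43 in Set21 and 14.3% ± 2.86 in yw, and at 25.0% ± 7.14 in combined H3K36R and 11.4% ± 2.33 in the histone control. In combined H3K36R, 6 to 12 of these 35 genes were detected in a library, against 3 to 5 in the histone control.

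Set21 was compared with yw to ask which receptors differ between larvae of these genotypes. Of the 186 members 126 passed the filter on low counts and were tested (17 X-linked, 109 autosomal). In Set21, 17 members were called lower and 1 higher, or 13.5% and 0.79% of those tested, while 21.1% and 23.4% of all 14365 tested genes were called lower and higher (44.5% in all). The share of members called lower was thus below that of all genes, but the fitted fold changes leaned down: 86 of 126 were below 0 and their median was −0.73, against 0.02 over all tested genes. None of the 17 X-linked members was called, with 2 at an unadjusted p below 0.05. DESeq2 called 20 members in all. In libraries, 20 tested members lay lower in every Set21 library than in every yw library (21.3% of all tested genes did so) and 2 lay higher (24.7%).

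**Figure D3:**
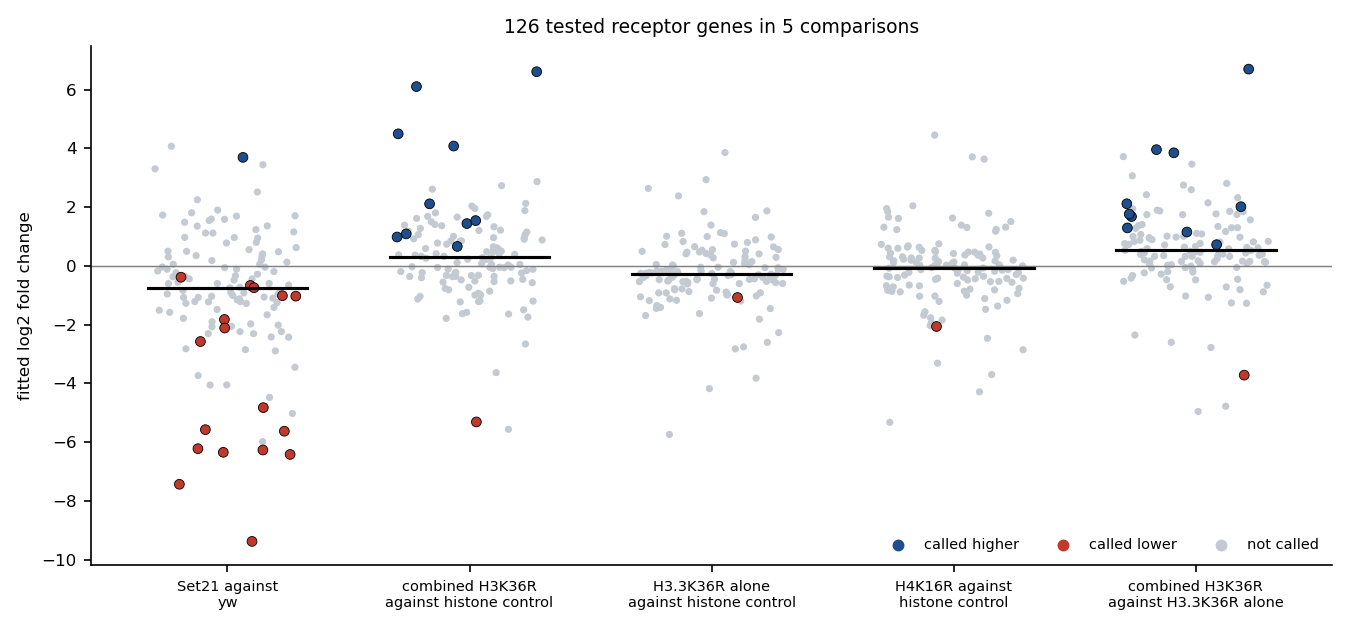
Fitted log2 fold change of each of the 126 tested receptor genes in 5 comparisons, with 1 point per gene, called genes coloured and the median of the tested members as a black line. The medians are −0.73 for Set21 against yw and 0.30, −0.27, −0.07 and 0.56 for the other comparisons from left to right. Values beyond about 5 in size belong to genes with 0 to 2 counts in one of the groups.

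Both main ionotropic co-receptors fell in Set21. Ir25a, the most widely used co-receptor, stood at 2.20, 1.93, 2.96 and 2.05 CPM in Set21, against 4.18, 3.62 and 3.65 CPM in yw (log2 fold change −0.74 ± 0.16 SE, edgeR adjusted p = 0.00076). Ir76b stood at 0.888, 1.77, 2.34 and 1.81 CPM in Set21, against 3.09, 3.42 and 3.91 CPM in yw (−1.03 ± 0.24, edgeR adjusted p = 0.0021). Neither gene's Set21 libraries overlapped those of yw. The third co-receptor, Ir8a, used for acid sensing in the adult antenna, had 0 counts in Set21 and 2 in yw.

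Of the 8 Ir genes with a mean of at least 1 CPM, 3 others fell, and Ir41a and Ir51a, an annotated pseudogene, were not called. Ir41a averaged 1.20 CPM in Set21 and 1.23 CPM in yw (−0.04 ± 0.33), and Ir51a 1.43 CPM in Set21 and 1.68 CPM in yw (−0.23 ± 0.28). Ir47a measured 1.54, 2.50, 1.86 and 2.79 CPM in Set21, against 4.17, 3.68 and 5.31 CPM in yw (−1.01 ± 0.21, edgeR adjusted p = 0.00080). Ir21a measured 1.62, 1.44, 1.19 and 1.11 CPM in Set21, against 2.45, 1.79 and 2.14 CPM in yw (−0.67 ± 0.17, edgeR adjusted p = 0.0034). Ir62a had the smallest fold change of these 3 called genes, with 4.36, 3.82, 3.57 and 4.38 CPM in Set21, against 5.10, 5.62 and 5.07 CPM in yw (−0.38 ± 0.14, edgeR adjusted p = 0.029), and its call was lost when any of yw replicates 2, 3 and 4 or Set21 replicates 2 and 3 was left out (edgeR adjusted p from 0.054 to 0.107). For Ir47a, Ir21a and Ir62a every Set21 library lay below every yw library.

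Some rarer Ir genes had very few counts in Set21. Ir64a, known from acid sensing in adult flies, had 5 counts in the 4 Set21 libraries and 101 in the 3 yw libraries (edgeR adjusted p = 0.0023). Ir75a had 1 count in Set21 and 164 in yw, which is 0.00397 of the yw level on the CPM scale (95% counting interval 1.0e-04 to 0.0224, edgeR adjusted p = 0.0015), although the yw libraries themselves ran from 0.0679 to 0.839 CPM. The histone genotypes also held little Ir75a, with 2, 27, 18 and 27 counts in combined H3K36R, H3.3K36R alone, H4K16R and the histone control. Ir75b, another acid receptor of the adult antenna, had 14 counts in Set21 and 104 in yw and was not called (edgeR adjusted p = 0.065). Ir94c, of a group of gustatory Ir genes, had 0 counts in Set21 and 24 in yw. Its yw mean was 3.07 times the Set21 limit of 3 counts per library.

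Ir76a was the exception. This tuning receptor, which in adult antennae works with Ir25a and Ir76b in amine-sensing neurons, measured 1.83, 1.91, 2.87 and 1.39 CPM in Set21, against 0.187, 0.0856 and 0.189 CPM in yw. Every Set21 library held several times the highest yw value, and the log2 fold change was 3.69 ± 0.34 (edgeR adjusted p = 9.9e-08). It was the only one of the 126 tested members called higher. In the 4 histone genotypes Ir76a was never as low as in yw: the lowest of those 16 libraries, an H4K16R one, held 0.548 CPM. CG14102, a gene on the opposite strand whose exons overlap those of Ir76a, stood at 0.904 CPM in Set21 and 0.736 CPM in yw (0.30 ± 0.31, edgeR adjusted p = 0.47).

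Gustatory receptors called lower in Set21 included 2 sugar receptors and 1 bitter receptor. Gr64a measured 0.0463, 0.0554, 0.0153 and 0.0159 CPM in Set21, against 0.178, 0.146 and 0.289 CPM in yw (−2.57 ± 0.57, edgeR adjusted p = 0.0012). Gr64f, which acts with other sugar receptors, had 1 count in Set21 and 47 in yw (edgeR adjusted p = 0.0015). Gr32a, a bitter receptor subunit, measured 0.085, 0.0554, 0.237 and 0.326 CPM in Set21, against 0.569, 0.642 and 0.658 CPM in yw (−1.82 ± 0.54, edgeR adjusted p = 0.0094). Of the other core bitter subunits, Gr66a, Gr33a, Gr39a and Gr89a had fold changes from −1.51 to −0.56 and none was called.

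The remaining gustatory calls were Gr68a and Gr94a. Gr68a, linked to courtship in adult males, had 2 counts in Set21 and 133 in yw, with all yw libraries between 0.323 and 0.445 CPM (edgeR adjusted p = 1.5e-05). Gr94a had 0 counts in Set21 and 28 in yw (yw mean 3.52 times the Set21 limit, edgeR adjusted p = 0.013), but 1 yw library was also at 0. The CO2 receptor subunits were not called: Gr21a averaged 0.339 ± 0.170 CPM in Set21 and 0.657 ± 0.250 CPM in yw, and Gr63a had 19 counts in Set21 and 26 in yw. Of the sugar receptors outside the Gr64 cluster, the fructose receptor Gr43a had a fold change of −0.60 ± 0.60, Gr61a of 0.62 ± 0.91 and Gr5a of 3.3 ± 1.55, none of them called.

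Among odorant receptors, Or30a showed the widest gap. This larval receptor had 0 counts in all 4 Set21 libraries and 213 in yw, where single libraries measured 0.119, 0.574 and 1.19 CPM. Its yw mean was 27.7 times the Set21 limit of 3 counts per library (edgeR adjusted p = 2.15e-06). In all 16 libraries of the histone genotypes Or30a was present at 0.218 CPM or more. Or69a, which responds to food and fly odours in adults, had 1 count in Set21 and 46 in yw. Or85a had 0 counts in Set21 and 25 in yw (yw mean 3.17 times the Set21 limit). Or45a, a larval receptor, averaged 0.0665 ± 0.0712 CPM in Set21 and 0.291 ± 0.198 CPM in yw (edgeR adjusted p = 0.033), and its call was lost without any of yw replicates 3 and 4 or Set21 replicates 2, 3 and 4 (edgeR adjusted p from 0.057 to 0.18). The most abundant Or genes were not called: the log2 fold change was −0.37 ± 0.25 for Or43b, −0.06 ± 0.31 for Or71a and −0.44 ± 0.39 for Or2a. Orco, the common Or co-receptor, averaged 1.88 CPM in Set21 and 2.99 CPM in yw and was called lower (−0.67 ± 0.24, edgeR adjusted p = 0.025).

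With Set21 replicate 3 left out, the library low in neuronal markers, 19 members were called in Set21 against yw, 18 lower and 1 higher, and the log2 ratio of the autosomal sums was −0.62.

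**Figure D4:**
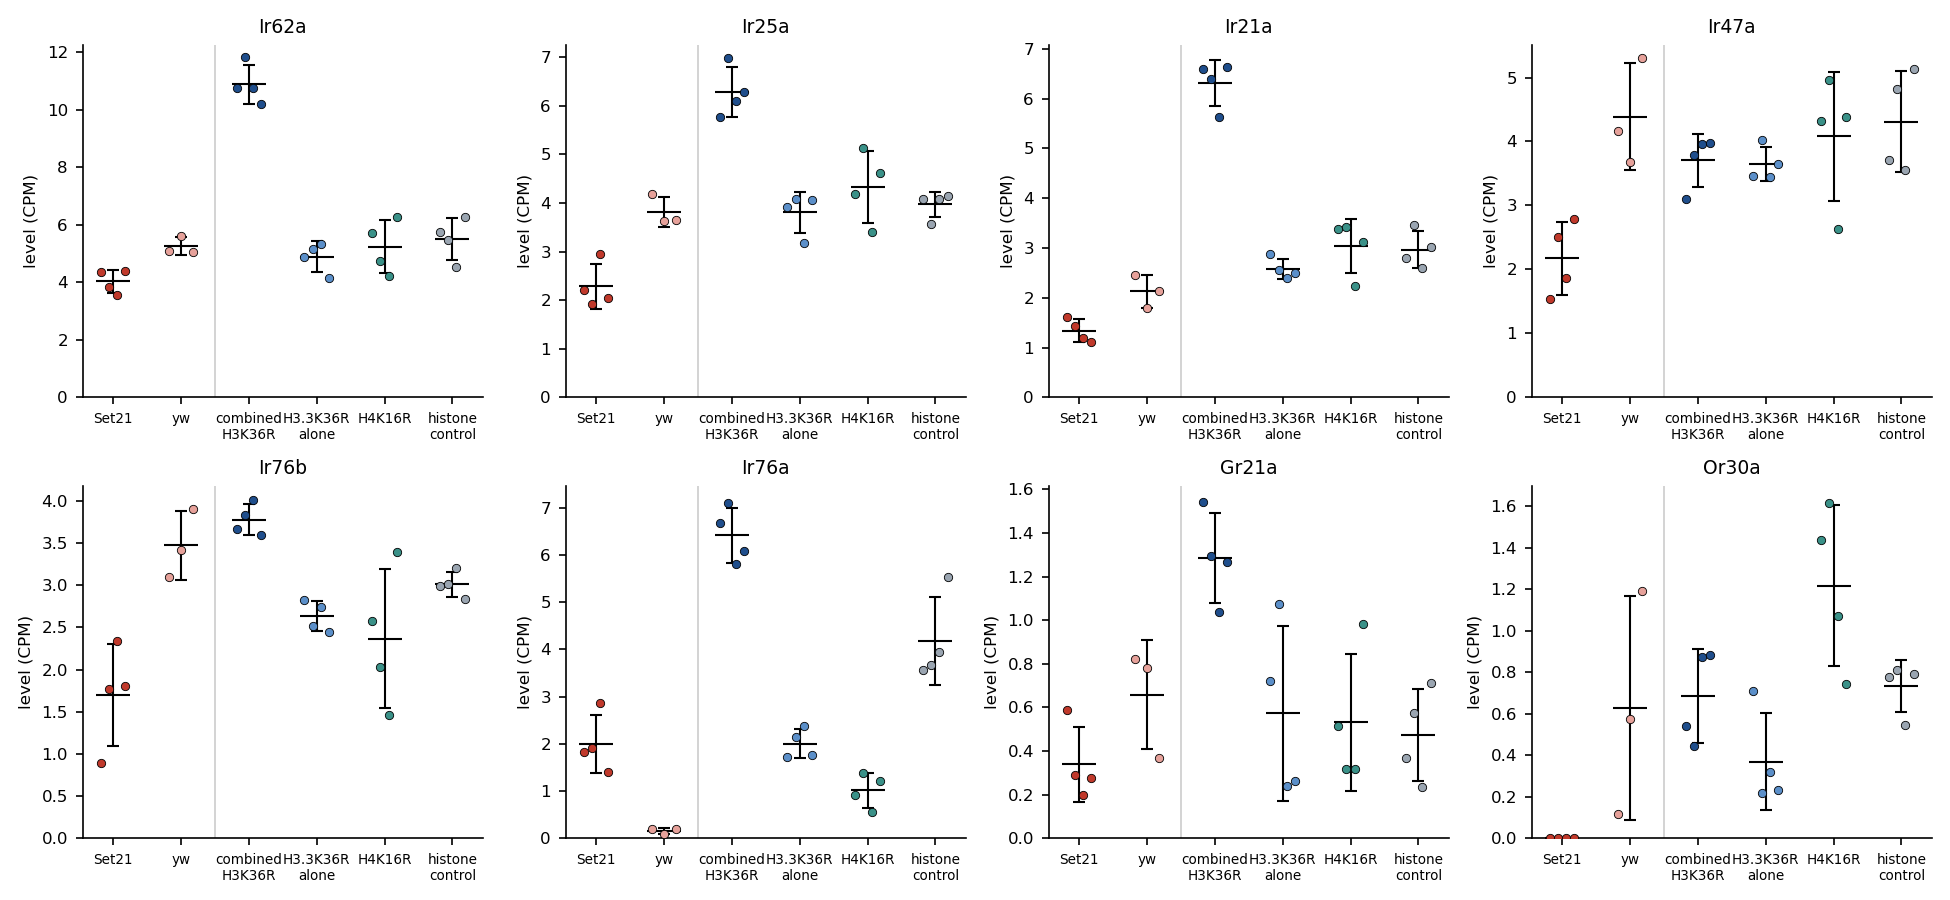
Level in CPM of 8 receptor genes in every library, with 1 point per library and bars for the genotype mean ± SD; the vertical line parts Set21 and yw from the 4 histone genotypes. Ir76a is near 0 in yw, Or30a is at 0 in all 4 Set21 libraries, and Ir62a, Ir25a and Ir21a are highest in the 4 combined H3K36R libraries.

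The next comparison sets combined H3K36R, in which both H3.3 and H3.2 lack lysine 36, against the histone control. Here 10 members were called higher and 1 lower, or 7.94% and 0.79% of the 126 tested, against 16.4% and 22.8% of all tested genes (39.2% in either direction). The median fold change of the tested members was 0.30, against −0.02 over all tested genes, and 73 of 126 were above 0. DESeq2 called 15 members. In libraries, 14 tested members were higher in every combined H3K36R library than in every control library (20.4% of all tested genes) and 2 were lower (22.2%).

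Among the Ir genes, 1 of 3 co-receptors (Ir25a) and 1 of 4 cool and humidity receptor genes (Ir21a) rose, as did Ir62a, which is on neither list. Ir62a measured 10.8, 11.8, 10.7 and 10.2 CPM in combined H3K36R, against 5.74, 5.48, 4.52 and 6.27 CPM in the histone control (0.98 ± 0.13, edgeR adjusted p = 4.0e-06). Ir21a, the cool receptor subunit, measured 6.60, 6.40, 5.63 and 6.63 CPM in combined H3K36R, against 2.81, 3.45, 2.60 and 3.01 CPM in the histone control (1.09 ± 0.16, edgeR adjusted p = 1.1e-05). Ir25a measured 5.78, 6.98, 6.09 and 6.29 CPM in combined H3K36R, against 4.09, 3.57, 4.07 and 4.14 CPM in the histone control (0.66 ± 0.14, edgeR adjusted p = 0.00083). For each of these 3 genes all combined H3K36R libraries lay above all control libraries.

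Partner subunits of the same receptors were not called. Ir93a, which joins Ir21a and Ir25a in the cool receptor, had a fold change of 0.27 ± 0.28, and the humidity receptor subunits Ir40a and Ir68a had 1.5 ± 0.72 and 0.65 ± 0.43. Ir76b had 0.33 ± 0.23 (edgeR adjusted p = 0.28). Ir76a averaged 6.42 ± 0.58 CPM in combined H3K36R and 4.18 ± 0.92 CPM in the histone control, with libraries that did not overlap, and its edgeR adjusted p was 0.061. Ir47a, called lower in Set21, averaged 3.71 CPM in combined H3K36R and 4.31 CPM in the histone control and was not called (−0.22 ± 0.20).

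Rarer Ir genes were called as well. X-linked Ir20a, a taste receptor gene, measured 0.141, 0.756, 0.298 and 0.464 CPM in combined H3K36R, against 0.0502, 0.0228, 0 and 0 CPM in the histone control (4.49 ± 1.28, edgeR adjusted p = 0.0088). Ir94c had 85 counts in combined H3K36R and 4 in the histone control, and Ir75b, the only member called lower, had 0 counts in combined H3K36R and 20 in the histone control. Both calls rest on scattered libraries, since Ir94c ran from 0.00742 to 0.297 CPM within combined H3K36R. The Ir94c call was lost without any of 5 of the 8 libraries and the Ir75b call without any of 7 (edgeR adjusted p from 0.054 to 0.109).

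Of the Gr genes, Gr64a and Gr21a rose. Gr64a measured 0.846, 0.940, 0.634 and 0.677 CPM in combined H3K36R, against 0.201, 0.0911, 0.235 and 0.185 CPM in the histone control (2.11 ± 0.49, edgeR adjusted p = 0.0016). Gr21a, a subunit of the CO2 receptor, measured 1.54, 1.29, 1.04 and 1.27 CPM in combined H3K36R, against 0.368, 0.577, 0.235 and 0.710 CPM in the histone control (1.44 ± 0.49, edgeR adjusted p = 0.023). The Gr21a call was lost without control replicate 1 or 3 or combined H3K36R replicate 1 (edgeR adjusted p from 0.056 to 0.079). Its partner Gr63a had 10 counts in combined H3K36R and 31 in the histone control and was not called. None of the 5 core bitter subunits was called, and their summed level was 2.93 ± 0.51 CPM in combined H3K36R and 2.81 ± 0.25 CPM in the histone control.

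The Or genes called higher were Or19a, Or67d and Or63a. X-linked Or19a, which detects citrus odours in adults, had 56 counts in combined H3K36R and 0 in the histone control. Its combined H3K36R mean was 4.19 times the control limit of 3 counts per library (edgeR adjusted p = 0.012). Or67d, the adult receptor of a male pheromone, had 38 counts in combined H3K36R and 0 in the histone control. Its combined H3K36R mean was 2.95 times that limit (edgeR adjusted p = 0.019). Counts of these 2 genes were spread over all 4 combined H3K36R libraries. With few counts elsewhere (0 to 6 per genotype for Or19a, 0 to 17 for Or67d), their calls give no support beyond the counts themselves, and without 3 of the 8 libraries (Or19a) or 2 of 8 (Or67d) the gene no longer passed the filter on low counts. Or63a, a larval receptor, measured 1.20, 0.792, 0.799 and 0.945 CPM in combined H3K36R, against 0.461, 0.440, 0.145 and 0.237 CPM in the histone control (1.54 ± 0.60, edgeR adjusted p = 0.046), a call lost without any of 7 of the 8 libraries (edgeR adjusted p from 0.053 to 0.132). The larval Or genes summed to 6.48 ± 0.29 CPM in combined H3K36R and 4.96 ± 0.81 CPM in the histone control, and the other Or genes to 5.47 ± 1.03 and 4.04 ± 0.74 CPM.

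With lysine 36 replaced on H3.3 alone, 1 receptor was called. Ir76a was called lower and none higher, 0.79% and 0% of 126, against 1.02% and 0.947% of all tested genes (1.96% in either direction). Ir76a measured 1.72, 2.15, 2.37 and 1.77 CPM in H3.3K36R alone, against 3.57, 3.66, 3.94 and 5.54 CPM in the histone control (−1.06 ± 0.26, edgeR adjusted p = 0.034). The groups did not overlap, but the call was lost without any of 5 of the 8 libraries (edgeR adjusted p from 0.051 to 0.142). The median fold change of the tested members was −0.27, against 0.03 over all tested genes, with 83 of 126 below 0. By edgeR 8 members had an unadjusted p below 0.05, and DESeq2 called 1 member. In libraries, 3 tested members lay higher in every library of H3.3K36R alone than in every control library (5.71% of all tested genes did so) and 7 lay lower (5.28%).

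Lysine 16 of H4, which the male-specific lethal complex acetylates along the X of males, is replaced in H4K16R larvae. This genotype likewise gave a single call among the members, again Ir76a. It measured 0.924, 1.38, 0.548 and 1.20 CPM in H4K16R, against the same 4 control values (−2.04 ± 0.27, edgeR adjusted p = 0.00046), and every H4K16R library lay below every control library. The member share called lower was 0.79%, against 1.03% of all tested genes, and 1.31% of all tested genes were called in either direction. Among tested members 2 lay higher in every H4K16R library than in every control library (4.11% of all tested genes) and 6 lay lower (4.27%). The call was kept without each of the 8 libraries in turn, but the edgeR adjusted p was 0.059 when only these 2 groups were fitted. None of the 17 tested X-linked members was called in H4K16R, with 2 at an unadjusted edgeR p below 0.05. Their median fold change was −0.65, against 0.05 over all tested genes, X-linked and autosomal together. Of the 25 X-linked members only 7 averaged at least 0.1 CPM, and no median over all X-linked genes is given here. The comparisons of combined H3K36R, H3.3K36R alone and H4K16R share the 4 control libraries and are not independent.

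Combined H3K36R was also compared with H3.3K36R alone, which asks what K36R on H3.2 adds. This comparison reuses the libraries of both genotypes that were set against the histone control, and is not independent of those comparisons. In combined H3K36R, 10 members were called higher and 1 lower (7.94% and 0.79%), against 19.7% and 28.0% of all tested genes (47.7% in either direction). In libraries, 16 tested members were higher without overlap (22.3% of all tested genes) and 0 were lower (27.4%). The median fold change was 0.56, against −0.03 over all tested genes, and 96 of 126 were above 0. Ir62a (1.15 ± 0.13), Ir21a (1.29 ± 0.16) and Ir25a (0.72 ± 0.14) were called higher. Ir76a averaged 6.42 ± 0.58 CPM in combined H3K36R and 2.00 ± 0.31 CPM in H3.3K36R alone (1.68 ± 0.26, edgeR adjusted p = 1.8e-05).

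Of the Or genes, 3 larval receptors were called higher in this comparison. Or45b measured 0.527, 0.516, 0.279 and 0.829 CPM in combined H3K36R, against 0.0955, 0.0909, 0.0794 and 0.261 CPM in H3.3K36R alone (2.02 ± 0.45, edgeR adjusted p = 0.00086). X-linked Or1a averaged 0.488 ± 0.165 CPM in combined H3K36R and 0.112 ± 0.033 CPM in H3.3K36R alone (2.11 ± 0.67, edgeR adjusted p = 0.012), and Or63a 0.933 ± 0.189 and 0.274 ± 0.096 CPM. The other calls rested on few counts: Gr58b had 57 counts in combined H3K36R and 0 in H3.3K36R alone, Gr47a 42 and 2, Ir94c 85 and 4, and Ir75a, called lower, 2 and 27. All 4 of these and Or63a lost their call without at least 1 library, whereas Ir62a, Ir21a, Ir76a, Ir25a, Or45b and Or1a kept it without each library in turn. Orco was called higher as well (0.71 ± 0.22, edgeR adjusted p = 0.011).

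The effects of Set21 and of combined H3K36R rest on separate libraries, and the difference between them was tested gene by gene. The difference, the Set21 effect minus the combined H3K36R effect, was called negative for 25 members and positive for 1, or 19.8% and 0.79% of 126, against 23.6% and 27.9% of all tested genes (51.5% in either direction). Ir21a (−1.75 ± 0.23), Ir62a (−1.37 ± 0.19) and Ir25a (−1.40 ± 0.21) were among the negative ones, and Ir76a was the positive one (3.07 ± 0.41). The median over the tested members was −0.77, against 0.04 over all tested genes. There were 5 members called both lower in Set21 and higher in combined H3K36R: Gr64a, Ir21a, Ir25a, Ir62a and Ir94c, which is 29.4% of the 17 lower calls and 50.0% of the 10 higher calls. Over all tested genes 933 were called in both ways, 30.7% of the 3038 lower calls and 39.5% of the 2361 higher calls.

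Related gene lists were set beside all tested genes. Of these, 21.1% were called lower and 23.4% higher in Set21, and 22.8% lower and 16.4% higher in combined H3K36R. Of the 13 ionotropic glutamate receptor genes, 9 (69.2%) were called lower and none higher in Set21, and 3 (23.1%) were called higher and none lower in combined H3K36R. Ekar and Grik were singled out after their values were seen and do not stand for this list. Ekar averaged 11.98 CPM in combined H3K36R and 2.06 CPM in the histone control (2.54 ± 0.23, edgeR adjusted p = 4.35e-08), and Grik 2.04 and 0.376 CPM. The medians of the list were −0.61 in Set21 and 0.21 in combined H3K36R. Among the 25 tested markers of sensory neurons and organs, 10 (40%) were called lower and 1 (nompA) higher in Set21, and 4 (16%, near the share of all genes) were called higher and 1 (TrpA1) lower in combined H3K36R. The log2 ratio of the summed level of this list was 0.19 in combined H3K36R against the histone control. Oseg2 and Rfx, given next, were singled out from the list after their values were seen and do not stand for it. Oseg2, needed for the cilia of sensory neurons, averaged 1.60 CPM in Set21 and 3.58 CPM in yw, and 10.1 CPM in combined H3K36R and 4.57 CPM in the histone control. Rfx, a regulator of ciliary genes, averaged 14.1 and 21.5 CPM, and 37.6 and 21.5 CPM, in the same 2 pairs of genotypes. Of the 51 tested odorant-binding and other perireceptor genes, 14 were called lower and 4 higher in Set21, and 10 lower and 5 higher in combined H3K36R.

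**Figure D5:**
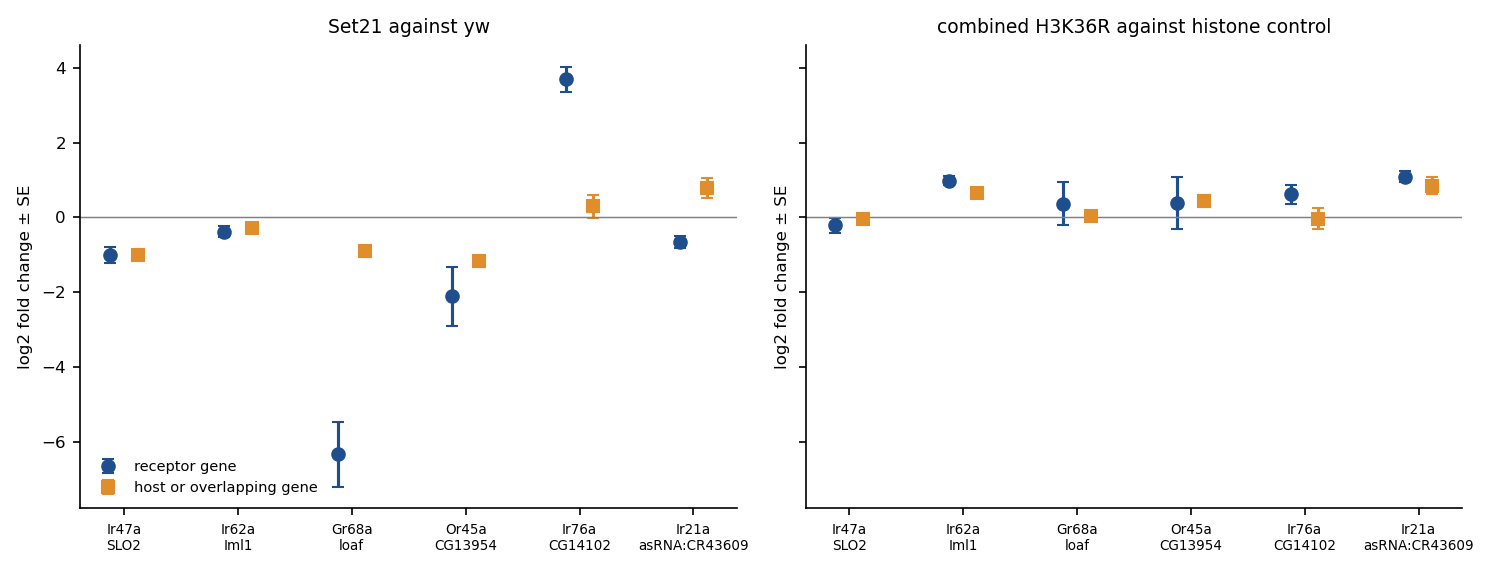
Log2 fold change ± SE of 6 receptor genes (circles) and of the gene that hosts or overlaps each one (squares), for Set21 against yw on the left and combined H3K36R against the histone control on the right. Ir47a and its host SLO2 both lie at −1.01 in Set21, and Ir62a and its host Iml1 lie at 0.98 and 0.65 in combined H3K36R.

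Several called receptors lie inside or across other genes. Of the 186 members 54 overlap another annotated gene. Of 23 tested members that lie within a tested host gene, 6 were called in Set21, all lower, and for 4 of these the host was called in the same direction. Of the 17 members within a host that were not called, 12 also had a host called lower, a similar share. Ir47a lies within SLO2, a potassium channel gene on the same strand, which averaged 33.7 CPM in Set21 and 67.9 CPM in yw (−1.01 ± 0.14, edgeR adjusted p = 2.0e-05), the same fold change as Ir47a. Ir62a lies within Iml1, a subunit gene of the GATOR1 complex on the same strand, which averaged 92.6 CPM in combined H3K36R and 59.1 CPM in the histone control (0.65 ± 0.09, edgeR adjusted p = 6.45e-06) and changed by −0.29 ± 0.10 in Set21. The share of unspliced host RNA in the counts of Ir47a and Ir62a was not tested.

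Gr68a, Ir21a and Or45b lie within or across a gene on the opposite strand. Gr68a lies on the opposite strand within loaf, which changed by −0.91 ± 0.14 in Set21, against a near-complete loss of Gr68a counts. The antisense gene asRNA:CR43609, which covers 79.4% of the exon bases of Ir21a, was called higher in Set21 (0.79 ± 0.26), where Ir21a was called lower, and higher, like Ir21a, in combined H3K36R (0.85 ± 0.23). All exon bases of Or45b lie under asRNA:CR45281, which like Or45b was called higher in combined H3K36R than in H3.3K36R alone (0.83 ± 0.18, edgeR adjusted p = 0.000595). The strand setting of the counting is not known, so the split of reads between these pairs was not tested. Ir25a (chromosome arm 2L, 4830846 to 4835300, minus strand), Ir76b (3L, 20108484 to 20111534, minus strand), Gr21a (2L, 780482 to 782885, plus strand) and Or30a (2L, 9111814 to 9113285, plus strand) overlap no other annotated gene, in BDGP6.54 coordinates. With overlapping members left out, the log2 ratio of the autosomal sums was −0.71 in Set21 against yw and 0.41 in combined H3K36R against the histone control.

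Some members differed between the yw stock and the histone control in a way that no comparison of the design tests. Ir76a averaged 2.00 CPM in Set21 and 0.154 CPM in yw, with 6.42, 2.00, 1.01 and 4.18 CPM in combined H3K36R, H3.3K36R alone, H4K16R and the histone control. Ir47b is an annotated pseudogene whose exons overlap those of Ir47a. It averaged 0.392 and 1.17 CPM in Set21 and yw, against 0.0729, 0.0297, 0.0311 and 0.0208 CPM in the same 4 histone genotypes. Gr39b showed the opposite order, with 0.0685 and 0.115 CPM in Set21 and yw and 0.661, 0.594, 0.773 and 0.849 CPM in the histone genotypes. For Ir47b and Gr39b the 7 libraries of Set21 and yw did not overlap the 16 libraries of the histone genotypes. Genetic background and histone genotype cannot be told apart here.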

How the data were processed

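The deposited values were raw counts of reads per gene for 23 libraries. Per the submitters' processing notes the authors used STAR 2.7.2a and Subread 2.0.3; the genome build, annotation, strand setting and treatment of shared reads are not stated there. Among counts from 5 to below 20, 62.1% were even. The submitters dropped yw replicate 1 for a library construction error. Names and positions came from BDGP6.54, which matched 17527 of 17606 identifiers (99.55%).

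The filter filterByExpr (minimum count 10) kept 14365 genes and 126 of 186 members. A member that passed only through the group where it is high could be called in 1 direction only. A quasi-likelihood model with 1 mean per genotype was fitted to all 23 libraries in edgeR 4.0.16 under R 4.3.3 (TMM scaling, robust dispersions, 17 residual degrees of freedom, common biological coefficient of variation 0.311). Tests were two-sided with Benjamini-Hochberg adjustment over all tested genes, with calls at an adjusted p below 0.05. The procedure was tested on simulated data in which changes were placed only in genes above 1 CPM. Of the 126 tested members 11 averaged at least 1 CPM, so recovery at the level of most members was not tested. DESeq2 1.42.0 was an alternative. For genes with 0 counts in a group, the mean of the other group is set against a limit of 3 counts per library. That ratio leaves out counting error and spread in the other group. Counting intervals are exact at 95%. The limit and the intervals treat counts as independent events. With 62.1% of small counts even, the limit may be too low and the intervals too narrow. Sums and detection rates over members had no test.

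Genes named are those called in a comparison (at most 25 each), the 5 highest per kb in each family, and members of the role lists. Genes outside the members come from the context and marker lists, and those singled out from these, Ir41a, Ir51a, Ir47b and the genes that host or overlap a member were named after their values were seen. The members and all lists were chosen with earlier results of these data known. Replicate numbers did not pair the samples: the correlation of same-numbered libraries ran from −0.037 to 0.432. No sequence was used here.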

Additional observations from a re-analysis of the deposited data

Results flagged for a closer look

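Of 81 groups of 4 libraries checked for a library far from the others, 6 had one. In Set21, Gr64f (replicate 2, 0.00693 CPM), Ir75a (replicate 2, 0.00693 CPM), Or69a (replicate 1, 0.00772 CPM) and Gr68a (replicate 4, 0.0159 CPM) each had counts in a single library and 0 in the other 3, so these 4 rest on 1 or 2 counts. In the histone control, Ir25a was lowest in replicate 2 at 3.57 CPM, with the others between 4.07 and 4.14 CPM. In H3.3K36R alone, Or45b was highest in replicate 4 at 0.261 CPM, with the others between 0.0794 and 0.0955 CPM. Chance alone gives such a library in some groups.

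The effect of Set21 against yw differed from that of combined H3K36R against the histone control for 26 members, by the edgeR contrast of the 2 effects at an adjusted p below 0.05; values are the Set21 effect minus the combined H3K36R effect on the log2 scale. Among Ir genes of at least 1 CPM the differences were −1.37 for Ir62a, −1.75 for Ir21a, −1.40 for Ir25a, −1.36 for Ir76b, −0.80 for Ir47a and 3.07 for Ir76a. Rarer Ir genes gave −4.50 for Ir64a, −4.65 for Ir60e, −2.98 for Ir40a, −3.38 for Ir47b, −3.27 for Ir48b, −7.39 for Ir20a and −10.30 for Ir94c. Gr genes gave −2.40 for Gr21a, −4.69 for Gr64a, −7.58 for Gr64f, −6.71 for Gr68a, −8.30 for Gr94a and −1.90 for Gr32a. Or genes gave −9.28 for Or30a, −7.31 for Or69a, −1.84 for Or45b, −6.78 for Or43a, −4.18 for Or49b, −2.18 for Or13a and −5.74 for Or67a. Differences of genes with 0 to 2 counts in a group depend on the prior count and give a direction, not a size. Of the 26, 16 kept their call without each library in turn and 10 lost it without at least 1. Or67a was −0.12 without yw replicate 2. Or43a stood at 0.0614 CPM per kb in combined H3K36R and at 0 to 0.0238 in the other genotypes. Without 2 of the 15 libraries Or43a no longer passed the filter on low counts, so its call gives no support beyond the counts.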

How the results depend on the processing

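Calls among the members moved within these ranges when each replicate was left out in turn: 17 to 22 for Set21, 7 to 12 for combined H3K36R, 0 to 1 for H3.3K36R alone, 1 for H4K16R, 8 to 16 for combined H3K36R against H3.3K36R alone and 22 to 30 for the difference between effects. These counts, like those of DESeq2 and the replicate block, describe stability only. Shares over all genes in those fits are not given here. The log2 ratios of the autosomal sums then ran from −0.63 to −0.56, 0.47 to 0.53, −0.28 to −0.24, −0.16 to 0.01 and 0.73 to 0.78 in the same order of the 5 comparisons, and those of the X-linked sums from −0.26 to −0.03, 0.32 to 0.58, −0.37 to −0.10, −0.65 to −0.32 and 0.61 to 0.79. DESeq2 called 20 members in combined H3K36R against H3.3K36R alone (18 higher, 2 lower). With only the groups compared in the fit, 0 members were called in H4K16R. With library totals in place of TMM, the autosomal ratio was −0.68 for Set21, 0.65 for combined H3K36R and 0.95 for combined H3K36R against H3.3K36R alone, where the X-linked ratio was 0.88; RLE factors gave an autosomal 0.83 there. Without Ir62a, the autosomal ratio of combined H3K36R was 0.41. Leaving out Ir76a, an alternative added after seeing the data, gave autosomal ratios of −0.70 for Set21, −0.20 for H3.3K36R alone and 0.68 for combined H3K36R against H3.3K36R alone. Without overlapping members the autosomal ratios were −0.71 for Set21, 0.41 for combined H3K36R, −0.18 for H3.3K36R alone and 0.59 for combined H3K36R against H3.3K36R alone, with an X-linked 0.50 in the last. Without Or2a the X-linked ratio was 0.69 for combined H3K36R and 0.94 for combined H3K36R against H3.3K36R alone. The cause of these shifts, beyond the members or scaling changed, was not tested.

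With a replicate block the calls numbered 19, 11, 1, 1 and 13 in the 5 comparisons and 26 for the difference. With the block, Ir94c and Gr47a lost their calls in combined H3K36R against H3.3K36R alone (edgeR adjusted p = 0.0547 and 0.0738). Ir47b and Or67a lost theirs in the difference (edgeR adjusted p = 0.0775 and 0.081). Pairing by number was not settled: 1 of 3, 3 of 4, 2 of 4, 3 of 4 and 2 of 4 libraries correlated best with their own number. Of the 130 members below 0.1 CPM, where a library holds fewer than 11 to 16.4 counts, 70 were tested. Of these, 3 were called in Set21 and 4 in combined H3K36R, against 44.5% and 39.2% of all tested genes. Detection rates depend on the limit: at 1 count or more, 54.5% of autosomal members counted as detected in Set21 and 73.3% in combined H3K36R.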
